A study of Mus musculus with 24 samples.

Results

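The DNA damage repair genes were all genes on probes with exactly 1 symbol in the platform annotation whose symbol begins with Rad followed by a digit, or with Xrcc, Ercc, Msh, Mlh, Brca, Fanc, Parp or Chek in the numbered forms of these families, together with the 2 ligase genes Lig3 and Lig4 and the genes Atm, Mre11a, Ung, Apex1, Tdg, Xpc, Ddb1 and Ddb2. Atr, Nbn, Ogg1 and Xpa were also looked for and were not among the genes found. The rule itself uses gene names and no measured value, but it was drawn up with earlier results of these data known. The rule found 43 genes of 6970 on 52 probes, 25 genes on slide type 1 and 22 on slide type 2, with 4 of them (Chek1, Chek2, Parp12 and Rad50) on both. Of the 43 genes, 36 were seen by 1 probe only. A probe shared by Rad54l and Lrrc41 on slide type 1 and a probe shared by Parp4 and another gene on slide type 2 carried several symbols and were left out.

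Cultured mouse embryos were heated to 43 °C for 15 min, put back at 37 °C and collected 1 h later, and their total RNA was compared with RNA of embryos kept at 37 °C throughout. The 24 arrays came from 3 numbered treatments and 2 slide types with different probes, and each array held both RNAs in its 2 channels. Heat-shocked RNA was in channel 1 on 2 arrays and in channel 2 on 2 arrays of every treatment and slide type. These 4 arrays were averaged to 1 log ratio per gene, so that n = 3 treatments throughout. Neither strain, embryonic age nor pooling is stated in the sources used here. Because the labels do not tie the treatments to separate litters, p-values reflect only spread between such samples, which may be technical. limma draws the variance of each gene towards a value shared by all genes. A p-value therefore does not rest on the gene's own 3 values alone.

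The deposited values are log ratios whose base and numerator are not stated. The positive side means heat-shocked over control if channel 1 is the numerator, and control over heat-shocked otherwise. If the sign were the other way round, positive and negative would trade places, while sizes and counts would stay. On the same scale Hspb1, a small heat shock protein gene known for its induction by heat, had 2.23 ± 0.05 (SD, n = 3 treatments), and Hsph1, an Hsp110 chaperone gene, 2.28 ± 0.50. The immediate early genes Jun and Egr1 had 1.97 ± 0.33 and 1.74 ± 0.72. Single arrays of the same channel order but different treatments correlated as low as r = −0.34 across the probes of slide type 2, and arrays of 1 treatment with opposite orders as low as −0.64, after all were turned to the same direction. Once the orders were averaged, the treatments of slide type 1 correlated at 0.70 to 0.80 and those of slide type 2 at 0.82 to 0.90, across probes that are not independent replicates.

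DNA repair rests on several pathways that recognise different lesions. Base excision repair removes damaged or misplaced bases, with a glycosylase cutting out the base, Apex1 nicking the strand and Xrcc1, Lig3 and the ADP-ribosyl transferases Parp1 and Parp2 serving the strand break that results. Nucleotide excision repair cuts out a stretch of strand around bulky lesions, mismatch repair corrects replication errors, and double strand breaks are rejoined either by end joining, through the Ku proteins Xrcc5 and Xrcc6, or by homologous recombination, in which Brca2 and, in yeast above all, Rad52 act. The kinases Atm and Atr and their effectors Chek1 and Chek2 signal damage to the cell cycle. Embryos divide fast and express much of this machinery as part of DNA replication.

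On slide type 1, 4 of the 25 repair genes passed the test on the positive side, namely Rad52, Ercc4, Rad1 and Atm, and 1, Lig3, on the negative side (limma with Benjamini-Hochberg adjustment over all genes of the slide type). Over all 3838 genes there, 5.73% were called positive and 5.65% negative, against 16% and 4% of the repair genes. Of the 22 repair genes on slide type 2, Ung and Parp12 (2 genes) passed with positive values and 7 with negative ones, Msh6, Xrcc6, Rad23b, Rad21, Parp2, Tdg and Parp1. There 18.5% of all 4075 genes were called positive and 31.9% negative, so the 9.09% and 31.8% of the repair genes are a lower share on the positive side and nearly the same share on the negative side. The median log ratio of the repair genes was −0.029 on slide type 1 and −0.079 on slide type 2, beside −0.038 and −0.049 over all genes. These sides rest on the centring of each array on its median: without it the median of all genes on slide type 1 was 0.27, with 263 positive and 5 negative calls in place of 220 and 217. Centring on the probes with 1 symbol gave 1249 and 861 calls on slide type 2 in place of 753 and 1299, and 254 and 119 on slide type 1. None of the 9 calls on slide type 2 held without centring, where 76 positive and 65 negative calls were left over all genes, or with either channel order alone, where 50 and 24 genes were called in all. The 14 genes called on a slide type were each seen there by 1 probe only. In whole embryos, fewer cells of a type and less RNA per cell cannot be told apart.

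**Figure D1:**
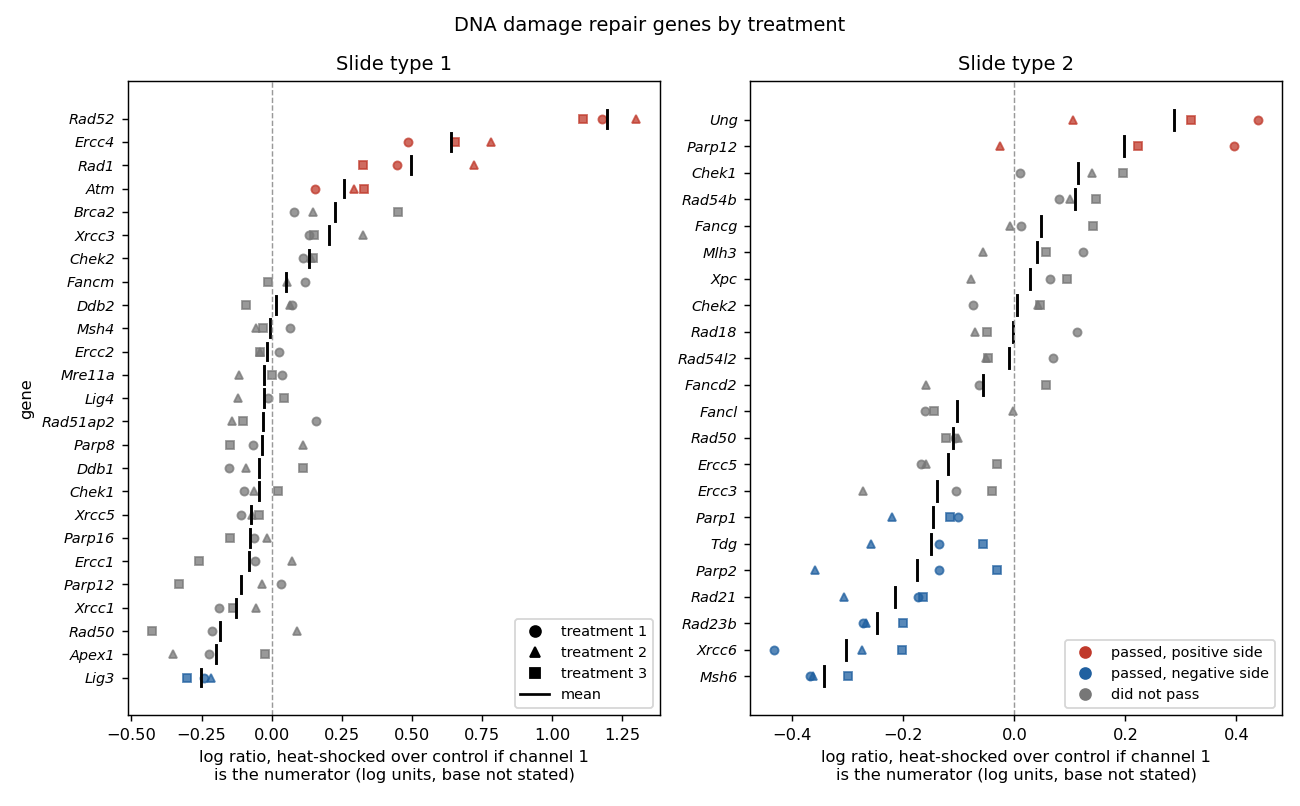
Log ratio of each repair gene in each of the 3 treatments (circle, triangle and square), with the mean as a black bar, on slide types 1 and 2, in log units of unstated base. Rad52, Ercc4, Rad1 and Atm stand at the top of slide type 1 with every treatment above 0, whereas 13 of the 20 genes not called there have means within 0.1 units of 0.

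**Figure D2:**
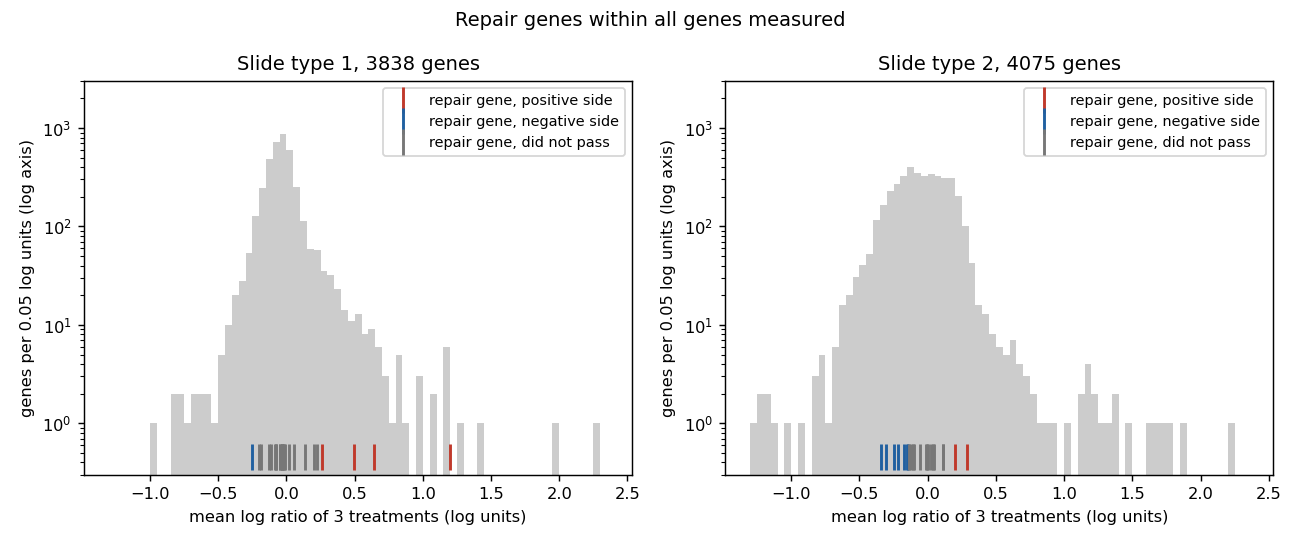
Number of genes per 0.05 log units of mean log ratio over all genes of each slide type (grey, on a log axis), with the repair genes as ticks coloured by call. On slide type 1, Rad52 lies in the far positive tail, with rank 5 of 3838 genes. The called genes of slide type 2 lie less far out, from Msh6 at percentile 7.82 to Ung at percentile 96.4 of all genes there.

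Rad52 and Ercc4 had the largest log ratios of all repair genes, and the stretches of 150 bases upstream of their transcription starts are shown because these 2 were called under each of the 15 alternative settings tried. Sequences are those of RefSeq on GRCm38.p6, 5′ to 3′ on the strand of the gene, from chr6:119902548-119902697 (plus strand) for Rad52 and chr16:13109586-13109735 (plus strand) for Ercc4. Capitals mark a GC box, GGGCGG on either strand. Searches for CCAAT and for the 2-unit heat shock element (GAANNTTC or TTCNNGAA), both on either strand, found no match in these letters.
Rad52: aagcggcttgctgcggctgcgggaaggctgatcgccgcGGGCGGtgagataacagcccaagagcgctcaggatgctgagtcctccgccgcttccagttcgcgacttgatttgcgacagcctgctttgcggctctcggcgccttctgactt
Ercc4: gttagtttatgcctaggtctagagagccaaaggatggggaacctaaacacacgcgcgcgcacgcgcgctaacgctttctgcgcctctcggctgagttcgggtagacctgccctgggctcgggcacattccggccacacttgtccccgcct

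Promoter windows were matched for 35 of the 43 genes. The heat shock element of 3 units, in which GAA and TTC alternate with 2 bases between units, was searched on both strands from 250 bases before to 50 after the start. It was in the window of 0 of the 35 repair genes, and of 0.662% of all 27025 genes with a window. In the 150 bases upstream, taking the first listed start of a gene, a GC box was found in 14 of 35 repair genes, beside 29.0% of all genes and 54.5% of the genes measured on either slide type. A CCAAT box was found in 11 of 35 (25.3% of all genes, 29.0% of those measured), and a 2-unit heat shock element, which every 3-unit element contains, in 3 of 35 (7.81% and 5.58%).

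Rad52, a recombination mediator that binds single-stranded DNA, had log ratios of 1.18, 1.30 and 1.1 in treatments 1, 2 and 3. Over the 12 single arrays they ran from 0.87 through a median of 1.19 to 1.42. All 12 arrays therefore lay on the positive side, and the spread between treatments was small beside the mean of 1.20 ± 0.10 (SD, n = 3, limma adjusted p = 3.8e-06), a 2.29-fold difference if the log is to base 2 and 3.30-fold if natural. The channel orders gave 1.31 (heat-shocked RNA in channel 1) and 1.08 (channel 2). Rad52 was seen by 1 probe only, on slide type 1, so no second probe bears on its value. It remained called under all 15 alternative settings, with means of 1.08 to 1.5.

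None of the other recombination and break-sensing genes was called (limma with Benjamini-Hochberg adjustment), although Brca2 and Xrcc3 had an unadjusted p under 0.05. With Rad52, 5 genes of this group were on slide type 1, where 5.73% of all genes were called positive and 5.65% negative. On slide type 2, with 3 genes of the group, 18.5% and 31.9% were. Brca2, a mediator of recombination, had a mean of 0.23 ± 0.20 (limma adjusted p = 0.0878), and passed in 4 of 15 alternatives, namely without treatment 2 (0.26, limma adjusted p = 0.0406), without centring (0.53), for heat-shocked RNA in channel 1 only (0.29) and with the median of the 4 arrays (0.31). Xrcc3, a recombination protein, had 0.20 ± 0.11 (limma adjusted p = 0.0583). It passed in 4 of 15 alternatives, namely without centring (0.51), with centring on probes with 1 symbol (0.25), for channel 1 only (0.27) and in a fit of the 12 arrays with treatment as a random block (limma adjusted p = 0.00398). That fit counted the 4 arrays of a treatment nearly as separate replicates, because their estimated correlation was 0.065. Brca2 and Xrcc3 both had every treatment above 0. Xrcc3 overlaps Klc1 in the RefSeq annotation, which had −0.20 ± 0.09 on slide type 1. Mre11a, the nuclease of the complex that senses broken ends, had −0.026 ± 0.082. Rad54b, a DNA translocase on slide type 2, had 0.11 ± 0.03 (limma adjusted p = 0.114), and Rad54l2, a related SNF2-family ATPase, −0.0099 ± 0.069.

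Rad50, the partner of Mre11a, was measured on both slide types. Its values were −0.21, 0.089 and −0.43 on slide type 1 (mean −0.18 ± 0.26, limma adjusted p = 0.232). Over 2 probes of slide type 2, at −0.10 and −0.12, they were −0.11, −0.10 and −0.12 (mean −0.11 ± 0.01, limma adjusted p = 0.109). The close agreement of treatments on slide type 2 came from averaging probes that differed, one with −0.22, 0.023 and −0.11 in the 3 treatments and the other with 0.0038, −0.23 and −0.14. The slide types overlapped. Without treatment 2, Rad50 passed on slide type 1 with −0.32 (limma adjusted p = 0.0073).

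Ercc4, the nuclease known as Xpf that cuts the damaged strand together with Ercc1, had 0.49, 0.78 and 0.65 in the 3 treatments and 0.30 to 1.02 over the 12 arrays, all on the positive side. Its mean was 0.64 ± 0.15 (SD, n = 3, limma adjusted p = 0.000215), from 0.76 for heat-shocked RNA in channel 1 and 0.52 for channel 2. Ercc1, the obligate partner of this nuclease, had −0.081 ± 0.17 over 2 probes at −0.04 and −0.12 (limma adjusted p = 0.536). The difference between the 2 partners was not tested. Ercc4 remained called under all 15 alternatives.

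Of the other nucleotide excision genes, only Rad23b, which stabilises the damage sensor Xpc, was called. It was 1 of 4 such genes on slide type 2, where 31.9% of all genes were called negative. Rad23b had −0.27, −0.27 and −0.20 there (mean −0.25 ± 0.04, limma adjusted p = 0.00224), but −0.047 for heat-shocked RNA in channel 1 and −0.45 for channel 2. Over single arrays it ran from −1.0 to 0.45, with 9 of 12 arrays below 0. Xpc itself had 0.027 ± 0.092, over 2 probes at −0.05 and 0.11. The helicases of transcription factor IIH did not pass, with Ercc2 at −0.018 ± 0.038 on slide type 1 and Ercc3 at −0.14 ± 0.12 on slide type 2 (limma adjusted p = 0.0669). The nuclease Ercc5 had −0.12 ± 0.08 there. The 2 subunits of the ultraviolet damage sensor lay near 0 on slide type 1, Ddb1 at −0.044 ± 0.14 and Ddb2, a known p53 target, at 0.016 ± 0.093.

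**Figure D3:**
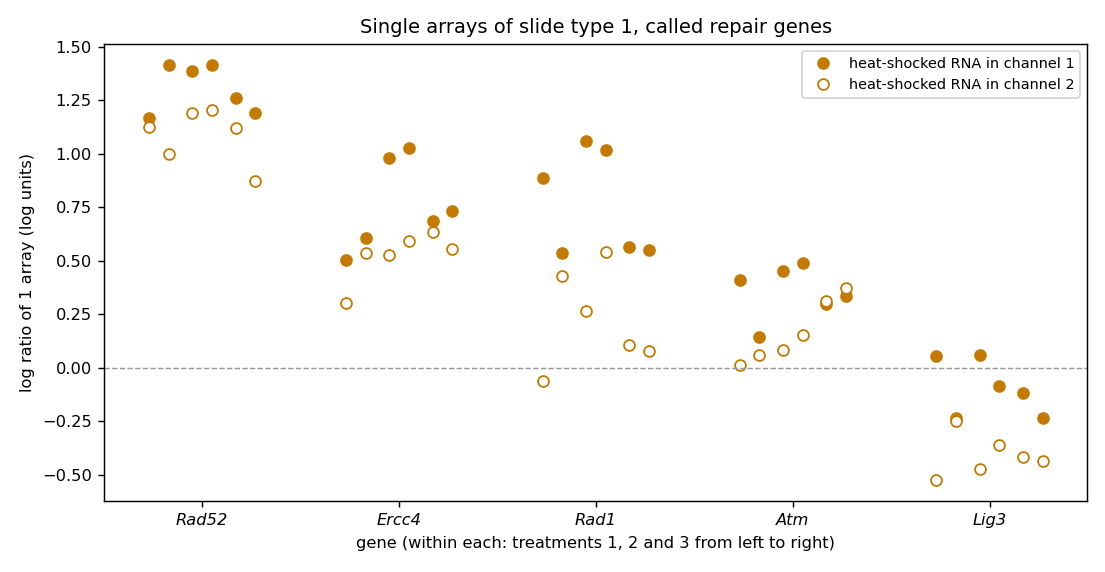
Log ratios of the 12 single arrays of slide type 1 for the 5 repair genes called there, in log units, with treatments 1 to 3 from left to right within a gene and the channel of the heat-shocked RNA by filled or open points. All 12 arrays lie above 0 for Rad52, Ercc4 and Atm, 11 of 12 for Rad1, and 10 of 12 lie below 0 for Lig3.

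Among checkpoint genes, Rad1, a subunit of the ring-shaped clamp that activates Atr, had 0.45, 0.72 and 0.33 in the 3 treatments. Its mean was 0.50 ± 0.20 (SD, n = 3, limma adjusted p = 0.00233), and 11 of 12 arrays were on the positive side. The size depended on the channel order, with 0.77 when heat-shocked RNA was in channel 1 and 0.23 when it was in channel 2, and with channel 2 only the call ended (limma adjusted p = 0.147). Rad1 overlaps Ttc23l and lies within 1000 bases of Brix1, which had 0.03 ± 0.16 on slide type 1 (limma adjusted p = 0.829). A probe whose strand is not given cannot tell overlapping genes apart.

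Atm, the kinase that answers double strand breaks, had 0.16, 0.29 and 0.33 (mean 0.26 ± 0.09, limma adjusted p = 0.0188), with all 12 arrays between 0.013 and 0.49. Its call ended when any 1 treatment was left out (0.22 to 0.31, limma adjusted p = 0.0549 to 0.0787), and with heat-shocked RNA in channel 2 only (0.16, limma adjusted p = 0.258). The effector kinases were called on neither. Chek2 had 0.11, 0.14 and 0.15 on slide type 1 (mean 0.13 ± 0.02, limma adjusted p = 0.161), and its values on slide type 2 were −0.074, 0.043 and 0.046 (mean 0.0051 ± 0.069, limma adjusted p = 0.947). Chek1 had −0.10, −0.063 and 0.021 over 2 probes of slide type 1 (mean −0.047 ± 0.061), and 0.01, 0.14 and 0.20 on slide type 2 (mean 0.12 ± 0.10, limma adjusted p = 0.112). The 2 kinases lay apart there by channel order, with Chek1 at 0.52 and −0.29 and Chek2 at −0.40 and 0.41 for heat-shocked RNA in channel 1 and in channel 2.

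In base excision and strand break repair, 1 of 3 genes on slide type 1 was called, on the negative side, where 5.65% of all genes were. On slide type 2 all 4 genes measured were called, 3 negative and 1 positive, beside 31.9% and 18.5% of all genes. Lig3, the ligase that works with Xrcc1, had −0.24, −0.21 and −0.30 on slide type 1 (mean −0.25 ± 0.04, limma adjusted p = 0.0157). It lay below 0 in every treatment and in 10 of 12 arrays, with −0.094 for heat-shocked RNA in channel 1 and −0.41 for channel 2. The call ended without treatment 1 (−0.26, limma adjusted p = 0.0996), and without centring of the arrays the mean was on the positive side, at 0.052. Lig3 overlaps Rffl, which had −0.13 ± 0.13. Apex1, the endonuclease that follows the glycosylases, had −0.20 ± 0.16 (limma adjusted p = 0.101), passing only without treatment 3 (−0.29, limma adjusted p = 0.0273) and in a fit of the 12 arrays with treatment as a random block (limma adjusted p = 0.0444). The latter fit counted the arrays of a treatment nearly as separate replicates. Xrcc1, a scaffold protein, had −0.13 ± 0.07 (limma adjusted p = 0.206).

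The 2 glycosylases, both on slide type 2, lay on opposite sides. Ung, which removes uracil from DNA, had 0.44, 0.11 and 0.32 (mean 0.29 ± 0.17, limma adjusted p = 0.00217), with 10 of 12 arrays on the positive side. The mean was 0.55 over arrays with heat-shocked RNA in channel 2 and 0.022 over those with it in channel 1. Ung overlaps Alkbh2, a dealkylating repair enzyme of the partner lists, which had 0.19 ± 0.06 (limma adjusted p = 0.0142) with −0.21 and 0.58 by channel order. Tdg, which removes thymine from G:T mismatches, had −0.14, −0.26 and −0.056 (mean −0.15 ± 0.10, limma adjusted p = 0.0461), but 0.24 for heat-shocked RNA in channel 1 and −0.54 for channel 2, with 6 of 12 arrays on each side.

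Parp1 and Parp2, the ADP-ribosyl transferases that mark strand breaks, lay on the negative side of slide type 2. Parp1 had −0.10, −0.22 and −0.12 (mean −0.15 ± 0.06, limma adjusted p = 0.0443), and Parp2 −0.14, −0.36 and −0.031 (mean −0.18 ± 0.17, limma adjusted p = 0.035). Every treatment was below 0 for both, as were 9 of 12 arrays. Parp1 had −0.0025 for heat-shocked RNA in channel 1 and −0.29 for channel 2, and Parp2 −0.23 and −0.13. Leaving out any 1 treatment ended the calls of Parp1 (−0.17 to −0.11) and Tdg (−0.20 to −0.10), and that of Parp2 ended without treatment 1 or without treatment 2 (−0.20 and −0.083).

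The remaining Parp genes are mono-ADP-ribosyl transferases with roles mainly outside repair. Parp12, an interferon-inducible member, had 0.034, −0.034 and −0.33 on slide type 1 (mean −0.11 ± 0.19, limma adjusted p = 0.412), and 0.40, −0.025 and 0.22 on slide type 2 (mean 0.20 ± 0.21, limma adjusted p = 0.0284). The 2 channel orders of slide type 2 disagreed in side, at −0.44 and 0.83, and the call ended without treatment 1 (0.10) or without treatment 3 (0.19). Parp16 and Parp8 had −0.076 ± 0.068 and −0.034 ± 0.13 on slide type 1 and did not pass.

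Mismatch repair was represented by 3 genes. Msh6, a subunit of the dimer that binds single mismatches, had −0.37, −0.36 and −0.30 on slide type 2, the lowest mean of the repair genes there at −0.34 ± 0.04 (SD, n = 3, limma adjusted p = 0.000172). The 3 treatments lay close together, yet 3 of 12 arrays were above 0, and the channel orders gave −0.17 and −0.51. Mlh3 had 0.042 ± 0.091 on the same slide type and the meiotic gene Msh4 −0.0075 ± 0.065 on slide type 1. Msh6 overlaps Fbxo11, which had −0.03 ± 0.06 on slide type 1.

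The subunits of the Ku dimer, which binds broken ends before they are joined, were on different slide types. Xrcc6, or Ku70, had −0.43, −0.27 and −0.20 on slide type 2 (mean −0.30 ± 0.12, limma adjusted p = 0.000878), on the negative side in both channel orders (−0.23 and −0.38). Of its 12 arrays, 4 were above 0. With heat-shocked RNA in channel 1, its treatments ran from −0.66 to 0.13. Xrcc5, or Ku80, had −0.075 ± 0.031 on slide type 1 (limma adjusted p = 0.443), where it was 0.094 for heat-shocked RNA in channel 1 and −0.25 for channel 2. Lig4, the ligase of end joining, had −0.029 ± 0.083. The difference between the 2 subunits was not tested.

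Rad21, the cohesin subunit that closes the ring around sister chromatids, had −0.17, −0.31 and −0.16 on slide type 2 (mean −0.21 ± 0.08, limma adjusted p = 0.00666), with 10 of 12 arrays below 0. Rad18, a ubiquitin ligase of lesion bypass, had −0.0025 ± 0.10. None of the 4 Fanconi anaemia genes, which handle crosslinks between strands, was called by limma with Benjamini-Hochberg adjustment, and 0 of 4 had an unadjusted p under 0.05. On slide type 1, with 1 of the 4, 5.73% of all genes were called positive and 5.65% negative. On slide type 2, with the other 3, 18.5% and 31.9% were. Fancl, the ubiquitin ligase of the pathway, had −0.10 ± 0.09, passing only without treatment 2 (−0.15), in arrays without the suffix (−0.22) and in no other setting. Its substrate Fancd2 had −0.056 ± 0.11, and Fancg 0.049 ± 0.082 on slide type 2. The translocase Fancm had 0.052 ± 0.067 on slide type 1.

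The 20 repair genes that did not pass on slide type 1 had means from −0.20 to 0.23, and 13 of them lay within 0.1 units of 0. The 13 such genes of slide type 2 ran from −0.14 to 0.12, 7 of them within 0.1 units. All 3 treatments had the same sign in 7 of the 20 and in 6 of the 13. A p above the threshold does not show that such a gene did not change.

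**Figure D4:**
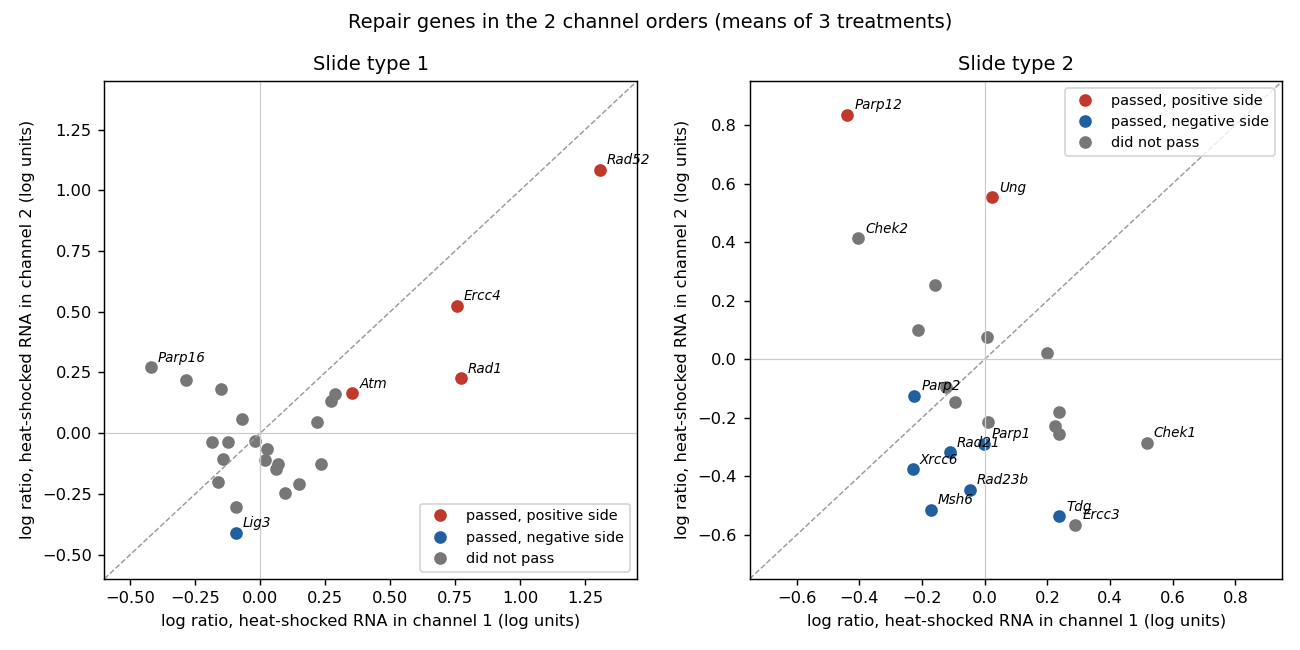
Mean log ratio of each repair gene with heat-shocked RNA in channel 1 (x axis) against channel 2 (y axis), in log units over 3 treatments, the dashed line marking equal values. On slide type 1 the called genes lie in the quadrants where both orders have 1 sign, whereas on slide type 2 Parp12 and Tdg lie where the orders oppose each other.

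The dependence on channel was measured as 0.5 times the difference between the channel orders (heat-shocked RNA in channel 1 minus channel 2) and tested over the 3 treatments. On slide type 1 this channel component was called for Rad1 (0.27 ± 0.04, limma adjusted p = 0.0164) and Parp16 (−0.35 ± 0.19, limma adjusted p = 0.0214), 2 of 25 repair genes, against 15.8% of all genes (8 of 25 and 1384 of 3838 at an unadjusted p under 0.05). Parp16 had −0.42 for heat-shocked RNA in channel 1 and 0.27 for channel 2, which nearly cancelled in its mean. It was called by limma on slide type 2 for 0 of 22 repair genes and 0% of all genes, with 4 of 22 and 357 of 4075 at an unadjusted p under 0.05. The component there differed between treatments, which correlated from r = −0.23 to 0.74 across genes, and its SD over all genes was 0.20, 0.55 and 0.24 in treatments 1, 2 and 3, beside 0.27, 0.25 and 0.23 for the averaged log ratio. The orders disagreed in sign for 11 of 25 repair genes on slide type 1 (56.8% of all genes) and for 11 of 22 on slide type 2 (57.1% of all genes). Among called repair genes this was so for 0 of 5 and for 2 of 9. A call rests on the mean of the 2 orders, so called genes are chosen for orders that do not cancel. These 2 counts therefore cannot be set against the shares of all genes, and the share among all called genes was not counted. The median of the repair genes on slide type 2 was −0.025 for channel 1 and −0.20 for channel 2, beside −0.035 and −0.12 over all genes.

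For the 4 genes on both slide types the difference itself was tested, slide type 1 minus slide type 2. It was called for none of them by limma (1 of 4 at an unadjusted p under 0.05), and for 22.1% of the 943 genes with probes on both. Parp12 differed by −0.31 ± 0.12 (SE, limma adjusted p = 0.0718), Chek1 by −0.16 ± 0.08 (limma adjusted p = 0.136), Chek2 by 0.13 ± 0.07 (limma adjusted p = 0.187) and Rad50 by −0.073 ± 0.11 (limma adjusted p = 0.625). Without treatment 2 the difference of Parp12 passed, at −0.46 (limma adjusted p = 0.0287).

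Partner genes of these pathways that the rule left out were taken from lists chosen with earlier results of these data known. Among 43 measured on slide type 1, 2 had called positive values and 5 called negative ones, beside 5.73% and 5.65% of all genes, with a median of −0.056. Among 28 on slide type 2 the counts were 4 and 7, beside 18.5% and 31.9% of all genes, with a median of −0.047. Whether these shares differ from those of all genes was not tested on either slide type. In the checkpoint and p53 list, Cdc25c, a phosphatase that activates Cdk1, had 0.83 ± 0.17 (limma adjusted p = 7.82e-05) and the stress-inducible Gadd45g 0.32 ± 0.13 (limma adjusted p = 0.0104) on slide type 1. For heat-shocked RNA in channel 1 and in channel 2, Cdc25c had 1.20 and 0.46, and Gadd45g 0.31 and 0.34. Topbp1, which activates Atr, had 0.24 ± 0.08 on slide type 2 (limma adjusted p = 0.00368), the inhibitory kinase Wee1 0.17 ± 0.02 (limma adjusted p = 0.0209) and the replication fork protein Tipin −0.23 ± 0.11 (limma adjusted p = 0.00531). The channel orders disagreed in side for Topbp1, at −0.23 for heat-shocked RNA in channel 1 and 0.70 for channel 2. They also did for Wee1 (−0.11 and 0.44), but not for Tipin (−0.19 and −0.27). The DNA clamp and its loaders lay on the negative side, with Pcna at −0.44 ± 0.001 and Rfc3 at −0.26 ± 0.08 on slide type 1 and Rfc1 at −0.27 ± 0.02 and Rfc2 at −0.20 ± 0.06 on slide type 2. So did the single-strand binding subunits Rpa2 (−0.26 ± 0.05) and Rpa3 (−0.15 ± 0.09) and the Xpc partner Cetn2 (−0.26 ± 0.11) on slide type 2. By channel order Rfc2 had 0.074 and −0.46, Rfc1 −0.23 and −0.31, Rpa2 −0.11 and −0.42, Rpa3 −0.0052 and −0.30, and Cetn2 −0.22 and −0.31 there. With heat-shocked RNA in channel 1, the highest treatment of Rfc1, Rpa2, Rpa3 and Cetn2 was above 0, at 0.17, 0.31, 0.021 and 0.030. The probe for Rpa2 on slide type 1 had −0.12 ± 0.07 and was not called (limma adjusted p = 0.217), nor was the third subunit, Rpa1, there (−0.056 ± 0.019, limma adjusted p = 0.586). Usp1, which deubiquitinates Fancd2 and Pcna, had −0.30 ± 0.09 on slide type 1 and −0.24 ± 0.08 on the other (limma adjusted p = 0.00925 and 0.00342). By channel order Usp1 had −0.12 and −0.47 on slide type 1, and −0.075 and −0.40 on slide type 2. Ube2v1 (−0.22 ± 0.11) and the nuclease subunit Eme1 (−0.21 ± 0.05) were negative on slide type 1, and Top3a, a topoisomerase, positive on slide type 2 (0.16 ± 0.11). By channel order Ube2v1 had −0.20 and −0.24, and Eme1 −0.059 and −0.36. Top3a had −0.31 for heat-shocked RNA in channel 1 and 0.64 for channel 2. None of the 6 and 3 measured base excision partners was called by limma with Benjamini-Hochberg adjustment, with 1 of 6 (Fen1) and 0 of 3 at an unadjusted p under 0.05.

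A ratio within an array gives no level, so the cell types present were not checked. Markers of 7 embryonic cell types gave 12 measured genes of 49 on slide type 1, from −0.21 to 0.11, and 4 on slide type 2, from −0.19 to 0.088, none of them of heart muscle. The neuronal tubulin Tubb3 (−0.21 ± 0.04) was called on slide type 1 and the keratin Krt18 (−0.19 ± 0.14) on slide type 2, and their part in the results above was not tested. For heat-shocked RNA in channel 1 and in channel 2, Tubb3 had −0.0026 and −0.42, and Krt18 on slide type 2 −0.094 and −0.28. Krt18 was not called over 2 probes of slide type 1 (−0.11 ± 0.15, limma adjusted p = 0.38).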

How the data were processed

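The authors deposited 1 processed value table per slide type, each with 7680 probes and 12 arrays. The deposited values are treated as a score, the authors' log ratio; base, numerator, background correction and any normalization are unstated. Array medians ran from −0.67 to 0.65 on slide type 1 and from −1.51 to 0.24 on slide type 2. Each array was centred on its median and turned to heat-shocked over control by the labels' channel names. The 2 arrays of a channel order (with and without a suffix in the slide code) were averaged, then the 2 orders, then the probes of a gene. Gene names come from GEO's platform annotation: 4749 and 4935 probes carried 1 symbol, 227 and 275 several, 2704 and 2470 none. Spot brightness was not analysed here, so dim spots stayed in.

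Means were tested against 0 with limma 3.58.1 in R 4.3.3 (lmFit, eBayes), adjusted by Benjamini-Hochberg at 0.05 over all genes of a slide type. With the variance shared over genes, Parp2 (SD 0.17) was tested with an SE of 0.065 and Parp12 on slide type 2 (SD 0.21) with 0.070. Pcna (SD 0.001) was tested with an SE of 0.053. The test was tested on simulated data with independent noise: on slide type 1 it recovered 89 of 100 changes of 0.5 units and 98 of 100 of 1 unit, with 5 of 3638 unchanged genes called; on slide type 2, 86, 97 and 5 of 3875. Correlation between genes, channel effects and errors of centring were not simulated, nor were changes smaller than 0.5 units. All repair genes called on slide type 2 had means smaller than that, so the recovery counts do not cover them. All repair genes but 1, which is counted among those not called, are named, with each treatment's value for genes called or on both slide types and the mean and SD for others; partner genes are named if called and among the 3 smallest p of their list and slide type. Fen1, Rpa1, overlapping genes and markers were named after their values were seen. The members and lists were chosen with earlier results of these data known. The motifs other than the 3-unit element were chosen after the values were seen. Figures were drawn with matplotlib 3.10.9.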

Additional observations from a re-analysis of the deposited data

How the results depend on the processing

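Rad52 and Ercc4 kept their calls under all 15 alternatives, and Rad1 under 14, the exception being channel 2 only (0.23). Msh6 and Xrcc6 passed under 12, Rad23b, Rad21 and Ung under 11, Lig3 under 10, Atm under 9, Parp2 and Parp12 under 6, Tdg under 3 and Parp1 under 2. Among called genes, a turned side was found for Lig3 without centring (0.052) and, with heat-shocked RNA in channel 1 only, for Parp12 (−0.44) and Tdg (0.24). Of the repair genes not called on slide type 1, 15 turned side without centring and 7 with channel 1 only. On slide type 2, 6 of those not called turned side with channel 1 only. Without centring, the median of all genes moved from −0.038 to 0.27 on slide type 1 and the calls over all genes from 220 positive and 217 negative to 263 and 5. On slide type 2, centring on probes with 1 symbol moved them from 753 and 1299 to 1249 and 861. Positive calls on slide type 1 (4) were 8 with heat-shocked RNA in channel 1 only and 2 in channel 2 only. The positive share of all genes moved as well, from 5.73% to 10.6% and 1.80%. Negative calls there (1) were 3 in a fit of 12 arrays with treatment as a random block, 2 for channel 1 only, 0 for suffixed arrays, without centring and at a threshold of 0.01, and 0 to 2 without 1 treatment. The negative share of all genes there, 5.65%, was 12.3% in the random block fit and 11.2% for channel 1 only. It was 1.95% for suffixed arrays and at 0.01, 0.13% without centring and 1.38% to 6.38% without 1 treatment. The random block fit counted the arrays of a treatment nearly as separate replicates. On slide type 2, negative calls (7) were 0 for either channel order alone and without centring, 2 with arrays scaled to a common spread, 4 with centring on probes with 1 symbol, with probes tested singly and at 0.01, and 4 to 5 without 1 treatment. With 1 channel order alone, 50 and 24 of all 4075 genes were called there. Positive calls (2) were 0 for either order, without centring and after scaling, 1 for suffixed arrays, the median of 4 arrays and 0.01, 4 with centring on probes with 1 symbol, and 1 to 2 without 1 treatment. The positive share of all genes there, 18.5%, was 1.87% without centring, 5.18% after scaling and 30.7% with centring on probes with 1 symbol. It was 14.2% for suffixed arrays, 18.2% for the median of 4 arrays, 9.89% at 0.01 and 7.19% to 24.1% without 1 treatment. The median of slide type 1 (−0.029) was 0.27 without centring, 0.013 with centring on probes with 1 symbol, 0.027 for channel 1 only, and −0.037 to 0.0047 without 1 treatment. That of slide type 2 (−0.079) was 0.0038, −0.0037 and −0.025 in those settings, −0.20 for channel 2 only, −0.0023 for suffixed arrays, and −0.093 to −0.043 without 1 treatment. Channel component calls on slide type 1 (2) were 4 for arrays without suffix and 0 to 8 without 1 treatment, and on slide type 2 (0) 0 to 1. Differences between slide types (0) were 0 to 1 without 1 treatment. With the treatment number as a replicate block, 0 of the 4 genes and 240 of 943 were called, against 208 of 943. Same-numbered treatments correlated in their deviations at 0.087, 0.25 and 0.24, each best with its own number. The causes were not tested.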
